A study of Mus musculus with 6 samples.

Results

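Keratins and keratin-associated proteins (Krtap) were examined as a measure of skin in the murine tissues around BEC, the cartilage engineered from rabbit bone marrow stromal cells. Of 48440 gene rows, 108 had a symbol made of Krt or Krtap and a number, 51 of them keratins and 57 Krtap genes. At least 10 counts over the 6 samples were found for 32 of these rows, which are the members described here, and all 32 were keratins. Just inside this limit was Krt35 with 10 counts, and just outside it were Krt12 and Krt72 with 7 counts each.

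BEC wrapped in PCL/collagen nanofibrous membranes was implanted under the dorsal skin of young adult male BALB/c nude mice. After 12 weeks, samples were harvested with the murine tissue entangled, and their RNA was sequenced. Murine transcripts were read by mapping to the mouse genome, and removal of rabbit cells before RNA extraction is not described. The 0%-Axitinib group (n = 3) had membranes without drug, which the labels call untreated, and the 3%-Axitinib group (n = 3) had membranes loaded with axitinib, an inhibitor of VEGF receptors, at 3% by weight. Nude mice carry a defective Foxn1 gene, have no thymus and form abnormal hair shafts, and a pair of constructs of one group shared each mouse, without the mouse of a sample being named. Reads counted on genes numbered between 9225518 and 18403795 per sample, and p-values here measure the spread between samples that may share animals.

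Keratins are the intermediate filament proteins of epithelial cells and are built from pairs of a type I and a type II chain. In skin, Krt5 and Krt14 mark the basal layer of the epidermis and Krt1 and Krt10 the layers above it, whereas the sheaths and the shaft of the hair follicle use further sets, and Krtap proteins crosslink the filaments of the hair shaft. Fat, fibrous tissue and muscle under the skin contain few keratins, apart from the simple epithelial set found in glands, ducts and some other cells.

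Some libraries stood apart from the others. 0%-Axitinib replicate 3 had Spearman coefficients between 0.846 and 0.893 with the other libraries, computed across genes, whereas those among the remaining libraries lay between 0.909 and 0.978. The skeletal muscle list summed to 21942 and 12288 CPM (counts scaled to library size after TMM normalization) in 3%-Axitinib replicates 1 and 3, and to at most 494 CPM elsewhere. Unmapped reads made up 5.47%, 3.84% and 14.9% of 0%-Axitinib replicates 1, 2 and 3, and 48.4%, 29.2% and 16.8% of 3%-Axitinib replicates 1, 2 and 3. Any share of rabbit RNA in a library was not measured, so rabbit reads counted on mouse genes cannot be told apart. For keratins, the library apart was 0%-Axitinib replicate 2, and group comparisons below that rest on it are given with and without it.

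Keratin and Krtap rows together held 377, 18578 and 289 counts in 0%-Axitinib replicates 1, 2 and 3, and 390, 233 and 485 counts in 3%-Axitinib replicates 1, 2 and 3. This was 0.111% of the counts of 0%-Axitinib replicate 2 (exact 95% interval 0.110% to 0.113%) and at most 0.00423% of the counts of any other library. Thus 1 library of the 0%-Axitinib group held 91.3% of all keratin and Krtap counts. Scaled to library size, 0%-Axitinib replicates 1 and 3 had 19.7 and 15.6 CPM of these rows, below each 3%-Axitinib sample, which had between 21.2 and 42.8 CPM. More than 3 counts, the limit of detection used here, were found for 30 of all 108 rows in that library and for between 7 and 12 rows in each other library. Of the 32 members, 16 have at least 90% of their counts in 0%-Axitinib replicate 2, so the rule of 10 counts selects in part for that library. Intervals and limits cover counting error only, and in bulk tissue, fewer cells of a type cannot be told apart from less RNA per cell.

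**Figure D1:**
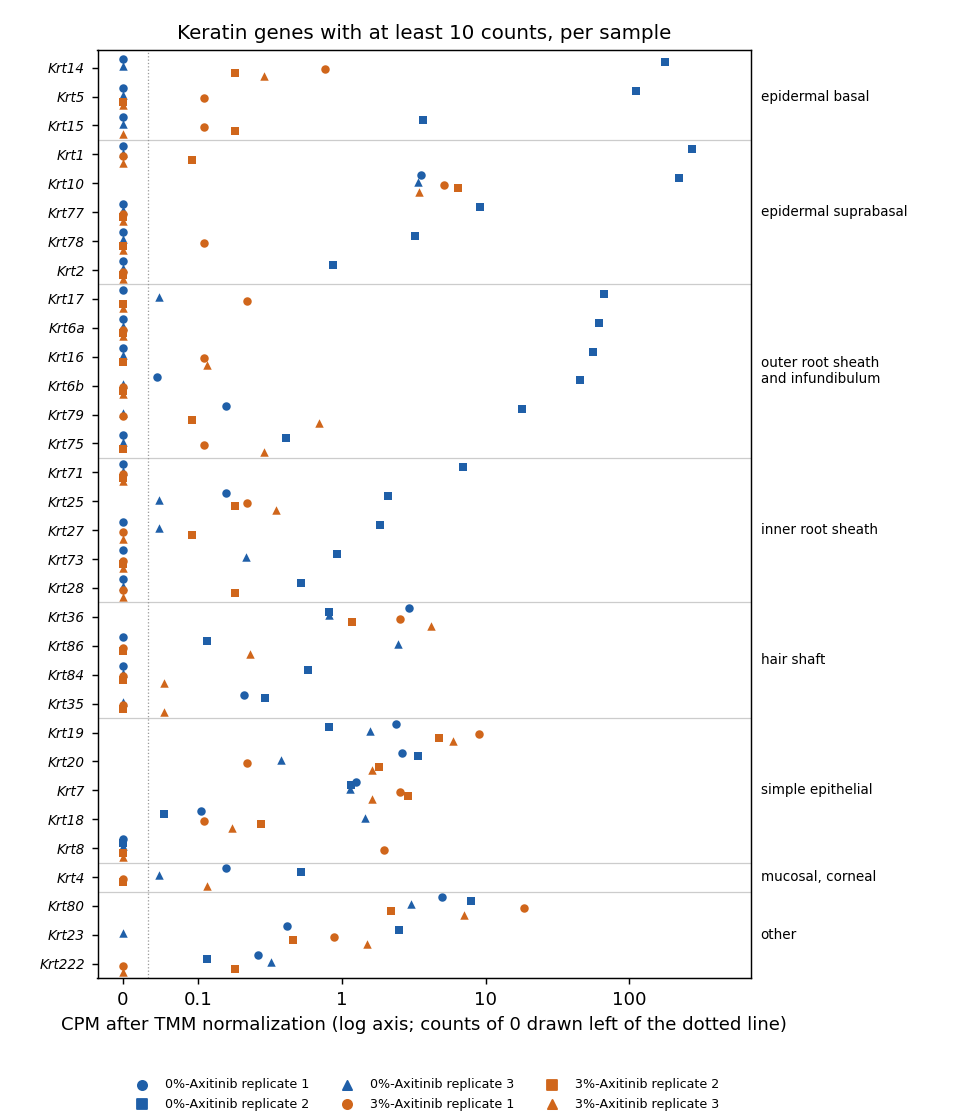
CPM after TMM normalization of the 32 keratin genes with at least 10 counts (log axis), 1 point per sample, grouped by keratin class, with counts of 0 drawn left of the dotted line. The square of 0%-Axitinib replicate 2 lies far to the right of the other samples for the epidermal and most outer root sheath keratins, but not for the simple epithelial keratins.

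The basal keratins of the epidermis showed this most plainly. Krt14, the type I chain of basal keratinocytes, had 0, 3044 and 0 counts in 0%-Axitinib replicates 1, 2 and 3, and 7, 2 and 5 counts in 3%-Axitinib replicates 1, 2 and 3. Its type II partner Krt5 had 1925 counts in 0%-Axitinib replicate 2, 1 count in 3%-Axitinib replicate 1 and none elsewhere. Krt15, a further basal keratin that is also used in the hair bulge, had 63 counts in 0%-Axitinib replicate 2 and at most 2 in another library. Only 0%-Axitinib replicate 2 was high for these genes, so the groups overlapped. The 0%-Axitinib group had a class sum of 97.5 ± 169 CPM (SD, n = 3), with 0 counts in both remaining samples, while the sum of the 3%-Axitinib group was 0.547 ± 0.383 CPM (SD, n = 3).

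The suprabasal keratins followed, with 1 exception. Krt1, the type II chain of the spinous layer, had 4685 counts in 0%-Axitinib replicate 2, 1 count in 3%-Axitinib replicate 2 and none in the other libraries. Krt77 and Krt2, which belong to the same layers, had 157 and 15 counts in 0%-Axitinib replicate 2 and 0 in every other library. Krt78 had 56 counts there and 1 count in 3%-Axitinib replicate 1. The exception was Krt10, the type I partner of Krt1, which was read in all libraries. Its values in 0%-Axitinib replicates 1, 2 and 3 were 3.55, 221 and 3.40 CPM, and those in 3%-Axitinib replicates 1, 2 and 3 were 5.15, 6.46 and 3.47 CPM. Apart from 0%-Axitinib replicate 2 these values were close together, and the groups overlapped. An antisense gene, Gm11940, overlaps Krt10 on chromosome 11 (99385254 to 99389364, GRCm38), and because a strand setting is not given in the sources used here, reads of the pair cannot be told apart. Relative to its highest other library, 0%-Axitinib replicate 2 was 34.2-fold higher for Krt10 (exact 95% counting interval 27.1 to 43.9) and 527-fold higher for the sum of the other epidermal keratins (286 to 1099).

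Within 0%-Axitinib replicate 2, levels per kilobase of exon could be compared between genes. Krt10 and Krt14 reached 105 and 101 CPM per kb, Krt1 61.7 and Krt5 50.9 CPM per kb. Per length, each type II chain was thus below its type I partner. The ratio was 0.506 for Krt5 to Krt14 (exact 95% counting interval 0.478 to 0.536) and 0.589 for Krt1 to Krt10 (0.565 to 0.615). By counts Krt1 was above Krt10 (4685 against 3806), so the direction of that pair rests on the exon lengths used, 4415 and 2114 bases. Counts of Krt10 may also hold reads of Gm11940. Among 20025 genes with a count and a known length in this library, Krt10 ranked 396 and Krt14 ranked 416 by CPM per kb.

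Keratins of the outer root sheath and the infundibulum, the outer wall of the follicle and its mouth, were read in the same library. Krt17 had 1153 counts in 0%-Axitinib replicate 2 and at most 2 elsewhere, and Krt16 had 962 counts there and at most 2 elsewhere. Krt6a had 1055 counts there and 0 in all other libraries, at least 186-fold higher by the limit of 3 counts in the least deep library. Krt6b had 781 counts there and 1 count in 0%-Axitinib replicate 1. These genes are also induced in epidermis that is wounded or proliferating, so they do not mark follicles alone. Krt6a and Krt6b are near-copies: 45.7% of the 50-base words of Krt6a transcripts and 50.1% of those of Krt6b occur in transcripts of other genes, as do 37.6% of those of Krt16, so the division of counts among such genes is uncertain. Krt79, a keratin of the infundibulum and the sebaceous duct, had 3, 310 and 0 counts in 0%-Axitinib replicates 1, 2 and 3, and 0, 1 and 12 counts in 3%-Axitinib replicates 1, 2 and 3. It was high in 0%-Axitinib replicate 2 and above the limit of detection also in 3%-Axitinib replicate 3. Krt75 departed from this, with 7 counts in 0%-Axitinib replicate 2 against 5 in 3%-Axitinib replicate 3 and at most 1 in the other libraries. As a class these keratins reached 82.8 ± 143 CPM (SD, n = 3) without drug, which was 0.131 CPM on average without 0%-Axitinib replicate 2, while the 3%-Axitinib samples had 0.543 ± 0.512 CPM (SD, n = 3).

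Keratins particular to the inner parts of the follicle were also read, at few counts. Krt71, a type II keratin of the inner root sheath, had 120 counts in 0%-Axitinib replicate 2 and 0 in the other libraries. Krt25, a type I keratin of that sheath, had 3, 36 and 1 counts in 0%-Axitinib replicates 1, 2 and 3, and 2, 2 and 6 counts in 3%-Axitinib replicates 1, 2 and 3. Krt27, Krt28 and Krt73 of the same sheath had between 9 and 32 counts in 0%-Axitinib replicate 2 and at most 4 in any other library. Of all 8 rows of this class, members or not, 7 had more than 3 counts in 0%-Axitinib replicate 2 and at most 1 did so in any other library, while Krt74 had its only 2 counts in 0%-Axitinib replicate 3. Per length, Krt71 and Krt25 had levels of 3.19 and 1.05 CPM per kb there, against 43.2 CPM per kb for Krt17 of the outer root sheath. The inner root sheath class summed to 13.0 CPM in 0%-Axitinib replicate 2 and to at most 0.455 CPM in any other library.

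The summed hair shaft class did not follow that library, although 2 of its 4 members were highest there. Its sums were 3.23, 2.03 and 3.61 CPM in 0%-Axitinib replicates 1, 2 and 3, and 2.52, 1.18 and 4.51 CPM in 3%-Axitinib replicates 1, 2 and 3, so that 0%-Axitinib replicate 2 was among the lower samples and the groups overlapped. Krt36, its most abundant member, had 56, 14 and 15 counts in the 0%-Axitinib group and 23, 13 and 72 counts in the 3%-Axitinib group. Krt86 was found mainly in 0%-Axitinib replicate 3, with 46 counts against 2 in 0%-Axitinib replicate 2 and 4 in 3%-Axitinib replicate 3, and 43.3% of its 50-base words are shared, mostly with Krt81. Krt84 had 10 counts in 0%-Axitinib replicate 2, 1 count in 3%-Axitinib replicate 3 and none elsewhere, and Krt35 had 5 of its 10 counts in 0%-Axitinib replicate 2. Of the 57 Krtap genes, 11 had any count and none had more than 3, with 14 counts in 0%-Axitinib replicate 2 and 1 count in all other libraries together.

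Taking epidermis against follicle per length in 0%-Axitinib replicate 2, the basal and suprabasal classes summed to 324 CPM per kb, the outer root sheath and infundibulum class to 129 CPM per kb, and the inner root sheath and hair shaft classes together to 7.48 CPM per kb. In the other libraries the epidermal sum lay between 1.61 and 3.28 CPM per kb, most of it from Krt10, and that of the inner root sheath and hair shaft classes between 0.970 and 2.83 CPM per kb. The epidermal sum was therefore the largest of the 3 in 0%-Axitinib replicate 2. Each keratin was counted in 1 class only, and Krt14 and Krt5, at 101 and 50.9 CPM per kb there, were counted as epidermal. Reads of such genes from follicle cells cannot be told apart, so the sums compare classes of genes and not amounts of epidermis and follicle. In 3%-Axitinib replicates 1 and 2 the epidermal sum was also above the inner follicle sum, at 3.02 against 1.62 and at 3.28 against 0.970 CPM per kb. Without Krt10 the epidermal sum was 0.581 and 0.227 CPM per kb in these samples, below the inner follicle sum. In 0%-Axitinib replicates 1 and 3 and 3%-Axitinib replicate 3 the epidermal sum was below the inner follicle sum even with Krt10.

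Simple epithelial keratins had another pattern. Krt19, a type I keratin of ducts and simple epithelia that is also found in the hair bulge, had values of 2.40, 0.814 and 1.56 CPM for 0%-Axitinib replicates 1, 2 and 3, against 8.99, 4.73 and 5.95 CPM for 3%-Axitinib replicates 1, 2 and 3. Krt7, a type II keratin of glands and ducts, was at 1.25, 1.16 and 1.13 CPM without drug and at 2.52, 2.91 and 1.62 CPM with it. Both were higher in all 3 samples of the 3%-Axitinib group without overlap, and neither was raised in 0%-Axitinib replicate 2. Unmapped reads were also more frequent in each 3%-Axitinib sample (16.8% to 48.4%) than in any 0%-Axitinib sample (3.84% to 14.9%). A difference between the groups cannot be told apart from one that goes with the unmapped share. Of all tested genes, 31.3% had groups that did not overlap. An antisense gene, Gm671, overlaps Krt7, and its reads cannot be told apart from those of Krt7. Krt20, a keratin of intestinal epithelium and Merkel cells, ranged from 0.219 to 3.37 CPM with overlap of the groups. Krt8 had 18 counts in 3%-Axitinib replicate 1 and 0 in all other libraries, and its partner Krt18 had 27 counts in 0%-Axitinib replicate 3 and at most 3 elsewhere, so the pair was not read together in any library above the limit of detection. Transcripts of other genes, chiefly the pseudogene Krt8-ps, hold 26.9% of the 50-base words of Krt8.

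Among the remaining keratins, Krt80, which is expressed in many epithelia, had 4.95, 7.90 and 3.02 CPM across 0%-Axitinib replicates 1, 2 and 3, and 18.5, 2.18 and 7.05 CPM across 3%-Axitinib replicates 1, 2 and 3. It was highest in 3%-Axitinib replicate 1 and the groups overlapped, and an antisense gene, Gm35853, overlaps it. Krt23 had 8, 43 and 0 counts in the 0%-Axitinib group and 8, 5 and 26 counts in the 3%-Axitinib group, highest in 0%-Axitinib replicate 2 but with overlap. Krt4, a keratin of mucosal epithelia and the only member of its class, had 15 counts in all.

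Both groups were then compared by edgeR's quasi-likelihood test, and the study's criterion of a fold change of at least 1.5 with an unadjusted p of at most 0.05 was applied. Only 7 of the 32 members had enough counts in enough samples to be tested, since a gene read in 1 library was removed by the filter, and the 7 do not stand for all members. Of these, 3 met the criterion, against 21.2% of the 15257 genes tested. None had an adjusted p of at most 0.05 by this test with Benjamini-Hochberg adjustment, against 0.00655% of all genes (1 gene). An unadjusted p of at most 0.05 was found for 3 members, against 23.5% of all genes. DESeq2's Wald test gave an adjusted p of at most 0.05 for 1 member (Krt19), against 12.8% of all genes, and limma-voom for 0, against 0.0131%. CPM of the groups did not overlap for 2 of the members, Krt7 and Krt19, against 31.3% of all genes. The median log2 fold change of the 7 was 0.80, and that of all tested genes was -0.03. When single samples were left out, the members' median ran from -0.58 (without 0%-Axitinib replicate 3) to 0.96 (without 0%-Axitinib replicate 2), with between 7 and 9 members then passing the filter. Over the same 7 members, a choice made after seeing the data, it was above 0 each time, lowest without 3%-Axitinib replicate 1 (0.0472) and 3%-Axitinib replicate 3 (0.266).

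For Krt19 the log2 fold change was 2.03 (standard error 0.50, unadjusted p = 0.00492), and it met the criterion in all 13 alternative settings, between 1.71 and 2.44. For Krt7 it was 0.98 (standard error 0.40, unadjusted p = 0.0451), and the criterion was met in 3 of 13 settings. By edgeR's quasi-likelihood test with Benjamini-Hochberg adjustment, the adjusted p was 0.1 for Krt19, 0.202 for Krt7 and 0.208 for Krt10. For Krt10 the log2 fold change was -3.93 (standard error 1.64, unadjusted p = 0.0476), and the criterion was met in 6 of 12 settings. It was not met with limma-voom (log2 fold change -1.49) or with the replicate block (-1.25). Without 0%-Axitinib replicate 2 the log2 fold change of Krt10 was 0.52 (standard error 0.45, unadjusted p = 0.286), in the other direction. Leaving out that library left 1 member, Krt19, past the criterion (log2 fold change 1.71, standard error 0.50, unadjusted p = 0.0136), against 16.7% of the genes then tested. Krt7 had an unadjusted p of 0.116 without it. Krt20, Krt23, Krt36 and Krt80 did not meet the criterion, with log2 fold changes of -0.77, -0.01, 0.80 and 0.80. Without 0%-Axitinib replicate 2 that of Krt23 was 2.14 (standard error 1.25, unadjusted p = 0.135), without 0%-Axitinib replicate 1 that of Krt36 was 1.69 and met the criterion, and without 3%-Axitinib replicate 1 that of Krt80 was -0.19.

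Other epidermal genes were read alongside the keratins. Of the 35 genes of the cornification list, which holds proteins of the outer envelope of the epidermis together with enzymes and secreted proteins of its upper layers, 34 had more than 3 counts in 0%-Axitinib replicate 2 and between 7 and 11 did so in each other library. The list summed to 27.5, 519 and 69.8 CPM in 0%-Axitinib replicates 1, 2 and 3, and to 134, 46.1 and 142 CPM in 3%-Axitinib replicates 1, 2 and 3. The high library was again 0%-Axitinib replicate 2, by 3.66-fold over the next. There, 24 of the 35 genes were above 1 CPM and at least 10 times higher than in every other library, with 0.1 CPM added to each value. Lor, the main envelope protein loricrin, had 15, 1779 and 9 counts in the 0%-Axitinib group and 0, 7 and 3 counts in the 3%-Axitinib group. Krtdap, a product of differentiating keratinocytes, had 47, 578 and 35 counts in the 0%-Axitinib group and 27, 24 and 107 counts in the 3%-Axitinib group. Flg, filaggrin, was at 0 in its own row, while a second row of the same name with a suffix, Flg_2, chosen after its values were seen, had 443 counts in 0%-Axitinib replicate 2 and none elsewhere.

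The most abundant gene of that list, here and for each list below meaning the gene with the most counts over the 6 samples, did not share this pattern. Sbsn, a secreted protein of the upper epidermis, had levels of 14.4, 25.3 and 2.48 CPM in 0%-Axitinib replicates 1, 2 and 3, against 86.1, 23.5 and 77.2 CPM in 3%-Axitinib replicates 1, 2 and 3. It was highest in 3%-Axitinib replicates 1 and 3, the libraries with high skeletal muscle genes, whereas Lor, at 103 CPM, was above it in 0%-Axitinib replicate 2. Of the 9 genes of the list that were tested, 1 met the criterion upward (Sbsn) and 3 downward (Tgm3, Lor and Asprv1), against 9.54% of all genes upward and 11.7% downward, shares that apply to each list below. Asprv1 was highest in 0%-Axitinib replicate 3, at 49.6 CPM against 42.5 CPM in 0%-Axitinib replicate 2 and at most 5.82 CPM elsewhere. The median log2 fold change of the 9 tested genes was -0.71. Without 0%-Axitinib replicate 2, 3 genes met it upward and 1 downward, against 6.65% and 10.1% of all genes then tested, and the median was 0.64, in the other direction.

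Genes of epithelial junctions and identity were less particular, since many are also used outside epithelia. All 35 had more than 3 counts in 0%-Axitinib replicate 2 and between 16 and 23 did so in each other library. Their sums were 361, 619 and 221 CPM in 0%-Axitinib replicates 1, 2 and 3, and 434, 315 and 424 CPM in 3%-Axitinib replicates 1, 2 and 3, with Dst, a linker protein of muscle and nerve as well as epidermis, the most abundant over the samples together, although it had the highest CPM of the list only in 0%-Axitinib replicate 1. Of the defining genes, Trp63, a transcription factor of basal keratinocytes, had 5, 100 and 5 counts in the 0%-Axitinib group and 21, 2 and 25 counts in the 3%-Axitinib group. Epcam had 10, 90 and 38 counts in the 0%-Axitinib group and 13, 23 and 11 counts in the 3%-Axitinib group. Cdh1, which encodes E-cadherin, was at 6.83, 9.36 and 5.18 CPM without drug and at 5.59, 3.46 and 2.83 CPM with it, and did not meet the criterion. In 0%-Axitinib replicate 2, all 3 of these genes had their highest CPM. Of 15 tested genes, 1 met the criterion upward (Ppl) and 2 downward (Itga6 and Pkp3), with a median log2 fold change of -0.92, and without 0%-Axitinib replicate 2, the same 2 met it downward, 2 genes met it upward and the median was 0.12.

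Regulators and structural genes of the hair follicle were low. Foxn1 had 7 counts in 0%-Axitinib replicate 2, 1 count in 0%-Axitinib replicate 3 and none elsewhere, Hoxc13 had at most 3 counts in any library, and Msx2 and Dsg4 were at 0. The list of 20 genes summed to 10.8, 31.3 and 25.4 CPM in 0%-Axitinib replicates 1, 2 and 3, and to 23.6, 43.0 and 20.9 CPM in 3%-Axitinib replicates 1, 2 and 3, with Tchh, trichohyalin of the inner root sheath, the most abundant. Sprr1b, which is also in the cornification list, is part of this sum, and without it 0%-Axitinib replicate 2 had 23.2 CPM. The groups overlapped, and the highest sum was that of 3%-Axitinib replicate 2, where Lgr6, Dlx3 and Shh had 13.3, 12.6 and 5.37 CPM. Tchh itself was highest in 0%-Axitinib replicate 2, at 12.3 CPM against at most 6.88 CPM elsewhere, and Sox21 and Tchhl1 had 22 and 9 counts there and 0 in every other library. Of 7 tested genes, Lgr6 met the criterion upward and Gata3 downward, and the median log2 fold change was 1.71. Without 0%-Axitinib replicate 2, 1 gene met it upward and 0 downward, with a median of 1.39.

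**Figure D2:**
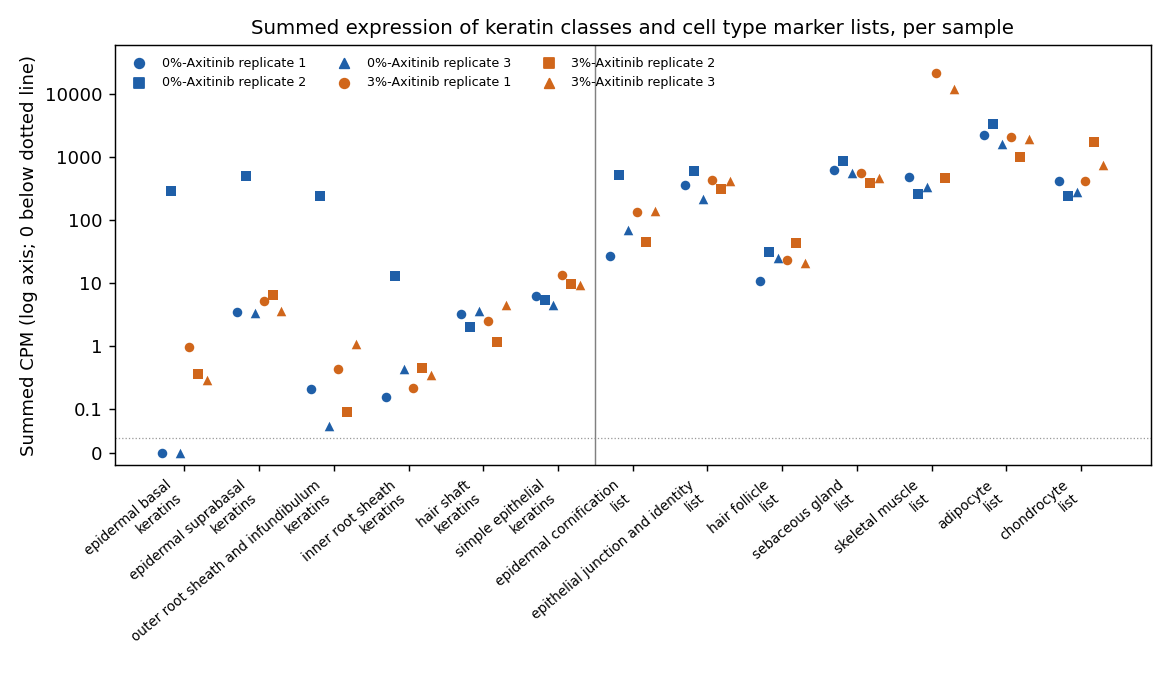
Summed CPM of 6 keratin classes (left of the vertical line) and 7 marker lists (right) in each of the 6 samples, on a log axis with sums of 0 below the dotted line. The epidermal, outer root sheath and inner root sheath keratins are high in 0%-Axitinib replicate 2 alone, and the skeletal muscle list is high in 3%-Axitinib replicates 1 and 3.

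Markers of other cell types were read as well, and their part in the keratin values was not tested. Sums of the sebaceous gland, melanocyte and adipocyte lists were also highest in 0%-Axitinib replicate 2, but they rest largely on Soat1, Mitf and Lpl, with 517, 107 and 2196 CPM there. Among genes with at least 10 counts, 8 of 15 sebaceous gland genes (the keratin Krt79 among them) were highest in that library. So were 1 of 5 melanocyte genes and 4 of 14 adipocyte genes. The 15 sebaceous gland genes, led by Soat1, which also has general roles in cholesterol storage, summed to 636, 882 and 574 CPM in 0%-Axitinib replicates 1, 2 and 3, and to 560, 386 and 475 CPM in 3%-Axitinib replicates 1, 2 and 3. Soat1 was the only gene of 7 tested to meet the criterion, downward, and none of 8 tested did so without 0%-Axitinib replicate 2. The 10 melanocyte genes, led by Mitf, summed to 117, 134 and 90.2 CPM in 0%-Axitinib replicates 1, 2 and 3, and to 111, 81.3 and 97.5 CPM in 3%-Axitinib replicates 1, 2 and 3, and of 5 tested, Kit and Mlana met the criterion downward. The mesothelium list, led by Msln and with Calb2 at 0, summed to between 4.97 and 24.4 CPM, and Wt1 met the criterion upward, while 0 genes of this list met it without 0%-Axitinib replicate 2.

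The skeletal muscle list, led over all samples by Acta1, summed to 494, 262 and 341 CPM in 0%-Axitinib replicates 1, 2 and 3, and to 21942, 465 and 12288 CPM in 3%-Axitinib replicates 1, 2 and 3. Of 34 tested genes, 31 met the criterion upward, those with the smallest p being Cav3, Myoz1, Neb and Eno3, with a median log2 fold change of 6.15. These sums were lowest in 0%-Axitinib replicate 2, where the epidermal keratins were high. In the 4 libraries with low sums Acta1 had at most 35.0 CPM, and Tpm1, which is not particular to skeletal muscle, had between 198 and 368 CPM and was the most abundant. The 14 adipocyte genes, led by Lpl, summed to 2279, 3333 and 1657 CPM in 0%-Axitinib replicates 1, 2 and 3, and to 2144, 1002 and 1955 CPM in 3%-Axitinib replicates 1, 2 and 3. Of 14 tested genes, 3 met the criterion downward (Lep, Fabp4 and Pparg) and 2 upward (Plin4 and Slc2a4).

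The chondrocyte list, led by Comp, summed to between 246 and 423 CPM in 0%-Axitinib samples and 3%-Axitinib replicate 1, and to 1751 and 760 CPM in 3%-Axitinib replicates 2 and 3, and 7 of 16 tested genes met the criterion upward, with the smallest p for Chad, Col9a3, Acan and Hapln1. Other intermediate filament genes, led by Vim, the filament protein of mesenchymal cells, summed to 6155, 6238 and 2355 CPM in 0%-Axitinib replicates 1, 2 and 3, and to 7318, 8686 and 8491 CPM in 3%-Axitinib replicates 1, 2 and 3. Of 10 tested genes, 5 met the criterion upward, with the smallest p for Bfsp1, Des (also in the skeletal muscle list), Prph and Synm, whereas 2 met it upward and 1 downward without 0%-Axitinib replicate 2.

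Across all genes, 120 were above 1 CPM in 0%-Axitinib replicate 2 and at least 10 times higher there than in every other library, with 0.1 CPM added to each value. Of these, 14 were keratins, led by Krt1, Krt6a and Krt5. By the same measure 0%-Axitinib replicate 3 had 245 such genes without a keratin among them, and 3%-Axitinib replicate 1 had 12 with 1 keratin.

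All 32 members lie in the keratin clusters of chromosomes 11 and 15, where type I and type II genes stand apart, with Krt18 the type I gene at the edge of the type II cluster. RefSeq promoters (GRCm38.p6) were matched for 20 members, and the 100 bases before the start were searched on both strands for TATAAA, the core of a TATA box, and for GCCNNNGGC, a form of the motif of AP-2 factors. TATAAA was present in 7 of the 20 windows, among them all 5 of the inner root sheath, against 5.56% of 32851 windows of all promoters. GCCNNNGGC was present in 2 (Krt7 and Krt18), against 6.78% of all windows, and no window of a member held both. Windows are shown for the basal pair, for Krt10 and for 2 inner root sheath genes, with TATAAA in capitals. The Krt14 window lies in an intron of a longer GENCODE transcript of Krt14, the others lie before the gene, and none touches an annotated exon. A match is a description of the letters and not a site.
Krt5, chr15:101712906-101713005, minus strand: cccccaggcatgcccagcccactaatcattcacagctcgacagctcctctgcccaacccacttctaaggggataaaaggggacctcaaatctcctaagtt
Krt14, chr11:100206031-100206130, minus strand: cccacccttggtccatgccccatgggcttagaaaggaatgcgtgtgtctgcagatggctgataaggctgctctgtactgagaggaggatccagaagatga
Krt10, chr11:99389365-99389464, minus strand: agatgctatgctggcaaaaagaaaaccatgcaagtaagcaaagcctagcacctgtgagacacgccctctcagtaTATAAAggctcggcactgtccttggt
Krt25, chr11:99322952-99323051, minus strand: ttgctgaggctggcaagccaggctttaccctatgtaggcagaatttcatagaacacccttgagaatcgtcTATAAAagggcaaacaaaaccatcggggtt
Krt73, chr15:101802361-101802460, minus strand: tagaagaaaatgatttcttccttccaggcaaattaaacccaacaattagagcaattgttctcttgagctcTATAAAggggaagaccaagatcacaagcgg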

How the data were processed

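Reads had been filtered by the authors with fastp and mapped to the mouse genome (GRCm38, mm10) with STAR 2.5.2b, and the deposited values are raw counts per gene. The annotation release and the strand setting are not given in the sources used here. The table had 48444 rows, of which 4 hold reads that STAR gave to no gene. These rows, kept out of library sizes and tests, made up 3.84% to 48.4% (unmapped), 2.71% to 6.65% (multimapping), 3.17% to 6.14% (outside genes) and 3.55% to 5.74% (overlapping genes) of a library.

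Differences were tested with edgeR 4.0.16 under R 4.3.3 (filterByExpr with a minimum count of 10 and a minimum total of 15, TMM, quasi-likelihood test, Benjamini-Hochberg adjustment over all tested genes), and alternatively with DESeq2 1.42.0 and limma 3.58.1. The edgeR test was tested on simulated counts, the outcome of which is not given here. CPM is scaled to counts on genes after TMM. The limit of detection was 3 counts. Exon lengths, positions and shared words of 50 bases came from GENCODE vM21 (GRCm38), which held all 32 members. Python 3.11.15 and matplotlib 3.10.9 drew the figures.

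Named genes were Krt5, Krt14, Krt15, Krt1, Krt10, Krt2, Krt6a, Krt16, Krt17, Krt79, Krt7, Krt8, Krt18, Krt19 and Krt80, the 2 most abundant members of each keratin class, each member meeting the criterion, and of each marker list its most abundant gene, up to 4 genes meeting the criterion with the smallest p, and the defining genes Cdh1, Epcam, Trp63, Lor, Flg, Krtdap, Foxn1 and Hoxc13. Other members and other list genes are named outside this rule, to account for their class or list. Members and lists were chosen with earlier results of these data known. Alternatives covered normalization, test, filter, a replicate block and each sample left out.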

Additional observations from a re-analysis of the deposited data

How the results depend on the processing

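The number of keratins meeting the criterion was 3 with edgeR and all samples, 1 with DESeq2's Wald test (against 23.5% of all genes), 1 with limma-voom (19.3%), 13 of 32 without a filter on low counts (15.4%), and between 1 and 4 with each sample left out (14.9% to 28.2%). DESeq2 gave no p for 1 member, Krt10, which was not counted. In a setting chosen after seeing the data, without both the filter and 0%-Axitinib replicate 2, 2 of 28 met it (12.5%), Krt19 and Krt14. For Krt14 the log2 fold change was then 5.62, against -7.25 without the filter and with all samples. It rests on 7, 2 and 5 counts in the 3%-Axitinib group against 0 in both remaining 0%-Axitinib samples. Without the filter the members' median log2 fold change was -3.40, since genes read in 1 library then entered, and without that library too it was 1.18, both with fitted values of genes at 0 in a group among them. With each sample left out and the filter kept, it ran from -0.58 to 0.96 with between 7 and 9 members tested. Over the same 7 members it ran from 0.0472 to 0.960. Calls over all genes at an adjusted p of 0.05 or less numbered 1 with edgeR, 1960 with DESeq2, 2 with limma-voom, 15 without a filter, and between 0 and 1252 with a sample left out. The cause of these differences was not tested. Krt10 ran from -4.50 to 0.52, Krt36 from 0.27 to 1.69, Krt23 from -0.58 to 2.14 and Krt80 from -0.19 to 1.26 with each sample left out, and Krt23 was 1.62 with limma-voom.

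Replicate numbers in the labels recur in both groups. Deviations of same-numbered samples from their group means correlated at 0.18, -0.12 and -0.17 across genes, and those of differently numbered samples at -0.22 to 0.21. With 3 samples per group, these values cannot settle whether same-numbered samples share more than a number. With the replicate block, 1 keratin met the criterion (against 17.1% of all genes), 2 of all genes had an adjusted p of 0.05 or less, and the log2 fold change of Krt23 was 0.92.

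Class sums, as group means in CPM with each sample left out, ran in the 0%-Axitinib group from 0 to 145 (epidermal basal), 3.46 to 254 (suprabasal), 0.131 to 123 (outer root sheath), 0.292 to 6.64 (inner root sheath) and 0.0268 to 0.428 (Krtap), each lowest without 0%-Axitinib replicate 2. In the 3%-Axitinib group they ran from 0.328 to 0.683 (basal), 0.268 to 0.780 (outer root sheath), 0.0555 to 0.202 (mucosal) and 5.72 to 14.2 (other). No class sum moved with the normalization by more than the spread between replicates or by over 1.5 times. In a setting chosen after seeing the data, as were the list medians without 0%-Axitinib replicate 2 and the hair follicle sum without Sprr1b, marker genes meeting the criterion without that library numbered 1 for hair follicle, 0 for sebaceous gland, 0 for mesothelium and 3 for other intermediate filaments (2 upward, 1 downward). Median log2 fold changes without it were 0.64 for cornification (-0.71 with it), 0.12 for epithelial junction and identity (-0.92), -0.061 for sebaceous gland (-0.42) and -0.081 for melanocyte (-0.47). Counts near 3 limit what can be said of most hair shaft and Krtap genes.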
